A study of Mus musculus with 32 samples.

Results

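The genes described here encode collagen chains, laminin chains and integrin subunits on the autosomes of mouse embryonic stem cells. They were chosen by symbol alone from the table of differentiating cells, which lists 15012 genes, of which 14471 are autosomal. The symbols were those of collagen alpha chains (Col, a number, a, a number), of laminin alpha, beta and gamma chains (Lama, Lamb and Lamc), and of integrin alpha and beta subunits (Itga and Itgb). This gave 54 genes, made up of 27 collagen, 9 laminin and 18 integrin genes. Of these, 43 were also in the table of undifferentiated RNA and all 54 in the table of nascent transcription, and 2 X-linked collagen genes were left out by the rule.

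Every library came from TX1072, a single female mouse embryonic stem cell line from a cross of C57BL/6, called B6 here, with CAST/EiJ, called Cast. The B6 copy of Xist is under a doxycycline-responsive promoter driven by rtTA placed in Rosa26, and 1 µg/ml doxycycline was given to induce it. Differentiating cells were measured by mRNA-seq at 0, 8, 16, 24 and 48 h, with 2 libraries a time. Undifferentiated cells, kept on gelatin in serum with LIF and both 2i inhibitors, were measured by mRNA-seq at 0, 2, 4, 8, 12 and 24 h of doxycycline, with 2 libraries a time, and by PRO-seq. PRO-seq, which labels RNA in the act of being made and so maps active polymerases, covered 0 and 24 h in 2 libraries each and 0.5, 1, 2, 4, 8 and 12 h in 1 library each, so those 6 times have no replicates. How differentiation was started is not given in the labels, and in that course the hours of differentiation and of doxycycline are the same number and cannot be told apart. The 2 RNA courses carry different title prefixes (B145 for differentiating and B144 for undifferentiated cells), so differentiation state and library batch cannot be told apart. The labels do not tie replicates to separate cultures, so the p-values below describe the spread between libraries, and that spread may be technical.

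Laminins are trimers of an alpha, a beta and a gamma chain that polymerise at the cell surface. Together with the network-forming type IV collagen they build the basement membrane, the first extracellular matrix of the embryo. Integrins are receptors of an alpha and a beta subunit; the pairing decides whether a cell binds laminin, collagen, or proteins such as fibronectin that carry an RGD sequence. In the early embryo the basement membrane lies under the epiblast, and its loss disturbs the polarity of that tissue.

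The promoters of 7 genes that the results below turn on are shown first. Itga1, Itga3, Itga5 and Col6a5 had the largest changes early in differentiation, Col18a1 was the highest collagen, and Lamb1 and Lamb2 are alternative laminin beta chains that moved in opposite directions. Each sequence is the 250 bases upstream of the RefSeq gene start on GRCm38.p6, written 5′ to 3′ on the strand of the gene, and RefSeq held such an entry for 37 of the 54 genes. Capitals mark the GC box GGGCGG (or CCGCCC on the other strand) and the CCAAT box CCAAT (or ATTGG on the other strand); no 2 matches overlapped.
Itga1: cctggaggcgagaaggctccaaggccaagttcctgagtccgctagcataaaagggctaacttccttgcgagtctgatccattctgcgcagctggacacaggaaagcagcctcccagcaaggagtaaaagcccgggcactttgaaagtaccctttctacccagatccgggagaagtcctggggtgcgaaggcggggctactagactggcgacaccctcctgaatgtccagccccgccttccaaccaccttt
Itga3: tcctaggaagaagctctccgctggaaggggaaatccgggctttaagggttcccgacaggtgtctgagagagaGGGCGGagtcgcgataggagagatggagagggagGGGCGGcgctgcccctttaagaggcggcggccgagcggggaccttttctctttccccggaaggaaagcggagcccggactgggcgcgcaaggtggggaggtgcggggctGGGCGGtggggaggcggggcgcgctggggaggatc
Itga5: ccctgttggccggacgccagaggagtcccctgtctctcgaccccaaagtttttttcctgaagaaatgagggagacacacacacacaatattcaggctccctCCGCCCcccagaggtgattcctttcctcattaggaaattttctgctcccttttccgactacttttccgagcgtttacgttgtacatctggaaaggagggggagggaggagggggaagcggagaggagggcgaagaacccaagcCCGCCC
Col6a5: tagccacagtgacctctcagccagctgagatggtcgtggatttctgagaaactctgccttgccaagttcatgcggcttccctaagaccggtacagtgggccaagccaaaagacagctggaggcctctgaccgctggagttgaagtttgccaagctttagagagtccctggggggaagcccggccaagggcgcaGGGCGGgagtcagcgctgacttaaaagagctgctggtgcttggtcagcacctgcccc
Col18a1: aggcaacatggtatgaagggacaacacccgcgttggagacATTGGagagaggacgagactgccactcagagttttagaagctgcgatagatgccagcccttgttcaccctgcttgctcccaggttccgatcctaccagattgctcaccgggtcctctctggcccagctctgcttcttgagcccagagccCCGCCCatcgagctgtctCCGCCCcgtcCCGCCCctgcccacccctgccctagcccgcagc
Lamb1: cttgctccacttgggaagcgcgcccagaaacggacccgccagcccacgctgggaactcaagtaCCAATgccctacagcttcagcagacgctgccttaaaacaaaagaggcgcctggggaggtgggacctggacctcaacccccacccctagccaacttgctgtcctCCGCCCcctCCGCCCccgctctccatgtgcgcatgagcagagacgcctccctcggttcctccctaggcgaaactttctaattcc
Lamb2: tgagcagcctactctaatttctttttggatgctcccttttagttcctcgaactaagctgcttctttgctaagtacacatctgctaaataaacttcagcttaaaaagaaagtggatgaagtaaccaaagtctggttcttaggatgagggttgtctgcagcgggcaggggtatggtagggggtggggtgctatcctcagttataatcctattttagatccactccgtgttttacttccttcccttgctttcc

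These windows lie at chr13:115101965-115102214 for Itga1, chr11:95076715-95076964 for Itga3, chr15:103366792-103367041 for Itga5, chr9:105960644-105960893 for Col6a5 and chr10:77166531-77166780 for Col18a1, all on the minus strand. Those of Lamb1 (chr12:31265043-31265292) and Lamb2 (chr9:108479612-108479861) are on the plus strand. The RefSeq starts used were 0 to 126 bases from the 5′ ends that the deposited PRO-seq table gives. The GC box, a Sp-family site, was found in 22 of the 37 windows (59.5%), against 32.7% of all 32851 RefSeq promoters searched over the same length on both strands. It occurred 3 times for Itga3 and Col18a1, 2 times for Itga5 and Lamb1, 1 time for Col6a5 and 0 times for Itga1 and Lamb2. The CCAAT box was in 11 windows (29.7%, against 33.8% of all promoters) and the TATA box TATAAA in 2 (5.4%, against 12.4%). The AP-1 site TGANTCA was in 1 window, that of Col6a1 (2.7%, against 6.7%), and the TCF/LEF site CTTTGAT in 1, that of Col9a2 (2.7%, against 3.2%). For these genes 1 start each was kept, the one nearest the deposited 5′ end, while the 32851 promoters were not reduced to 1 a gene. The percentages compared thus come from sets built differently. A match is a description of the letters and does not show that a factor binds. Col4a1 and Col4a2, the partners of the main type IV collagen trimer, lie head to head on chromosome 8, with RefSeq starts at 11312826 and 11312805, 21 bases apart.

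The values used are RPKM, read numbers scaled to gene length and library depth, which the authors deposited. Read depth, estimated from the steps between low RPKM values, was 59.0 to 98.4 M reads (M, mega-reads) in differentiating libraries and 55.4 to 84.1 M reads in undifferentiated ones, and the PRO-seq libraries had between 3041199 and 6443286 reads assigned to an allele. The cells carried the marks of their labels. All 10 naive pluripotency markers fell in differentiating cells at 48 h, where their summed level was 321 and 312 RPKM, against 1452 and 1463 RPKM at 0 h; in undifferentiated cells the sum was between 1242 and 1414 RPKM in all 12 libraries. Of the 8 formative and primed markers tested 7 rose and 1 fell at 48 h, and the sum over the list was 478 and 467 RPKM at 48 h, against 81.3 and 78.7 RPKM at 0 h. Fgf5, among them, had a mean of 0.126 RPKM at 0 h and could be tested only through its later rise. In undifferentiated cells 1 library stands apart, replicate 1 at 2 h. There, 3587 of 11612 genes lay at least 2-fold from the median of the other libraries, against 30 to 202 genes in each of the others, and the laminin sum was 66.3 RPKM, against a median of 142.8 RPKM over the 12 libraries.

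Levels spanned a wide range. In differentiating cells 31 of the 54 genes had a mean of at least 0.5 RPKM and were tested (12 collagen, 7 laminin and 12 integrin genes), and 11 genes reached 10 RPKM in some library. A further 12 were below 0.5 RPKM in every library. They were 3 fibrillar, 2 fibril-associated and 4 beaded-filament type VI collagens (Col1a2, Col5a2, Col11a1, Col16a1, Col22a1, Col6a2, Col6a3, Col6a4 and Col6a6), 1 laminin alpha chain (Lama4), and 2 integrin alpha subunits (Itga8 and Itga10). The other 11 averaged less than 0.5 RPKM but passed it in some library. They were Col6a1, Col7a1, Col13a1, Col17a1, Col26a1, Col27a1, Itga2b, Itga7, Itgam, Itgb2 and Lamb3.

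Each family was dominated by few genes. Col18a1, a basement membrane collagen whose C-terminal end is released as endostatin, made up 77.0% and 76.4% of the summed collagen RPKM at 48 h, against 62.4% and 62.4% at 0 h. Itgb1, the beta subunit shared by most matrix-binding integrins, made up 66.0% and 67.8% of the summed beta subunit RPKM at 48 h, against 79.0% and 79.4% at 0 h. Over the families, the collagen sum was 151 and 136 RPKM at 48 h, against 72.8 and 73.9 RPKM at 0 h, and the integrin alpha sum was 58.8 and 56.7 RPKM at 48 h, against 29.1 and 28.6 RPKM at 0 h. The laminin sum was 128 and 117 RPKM at 48 h, against 146 and 139 RPKM at 0 h, and the integrin beta sum was 92.6 and 92.9 RPKM at 48 h, against 100.4 and 101.2 RPKM at 0 h.

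**Figure D1:**
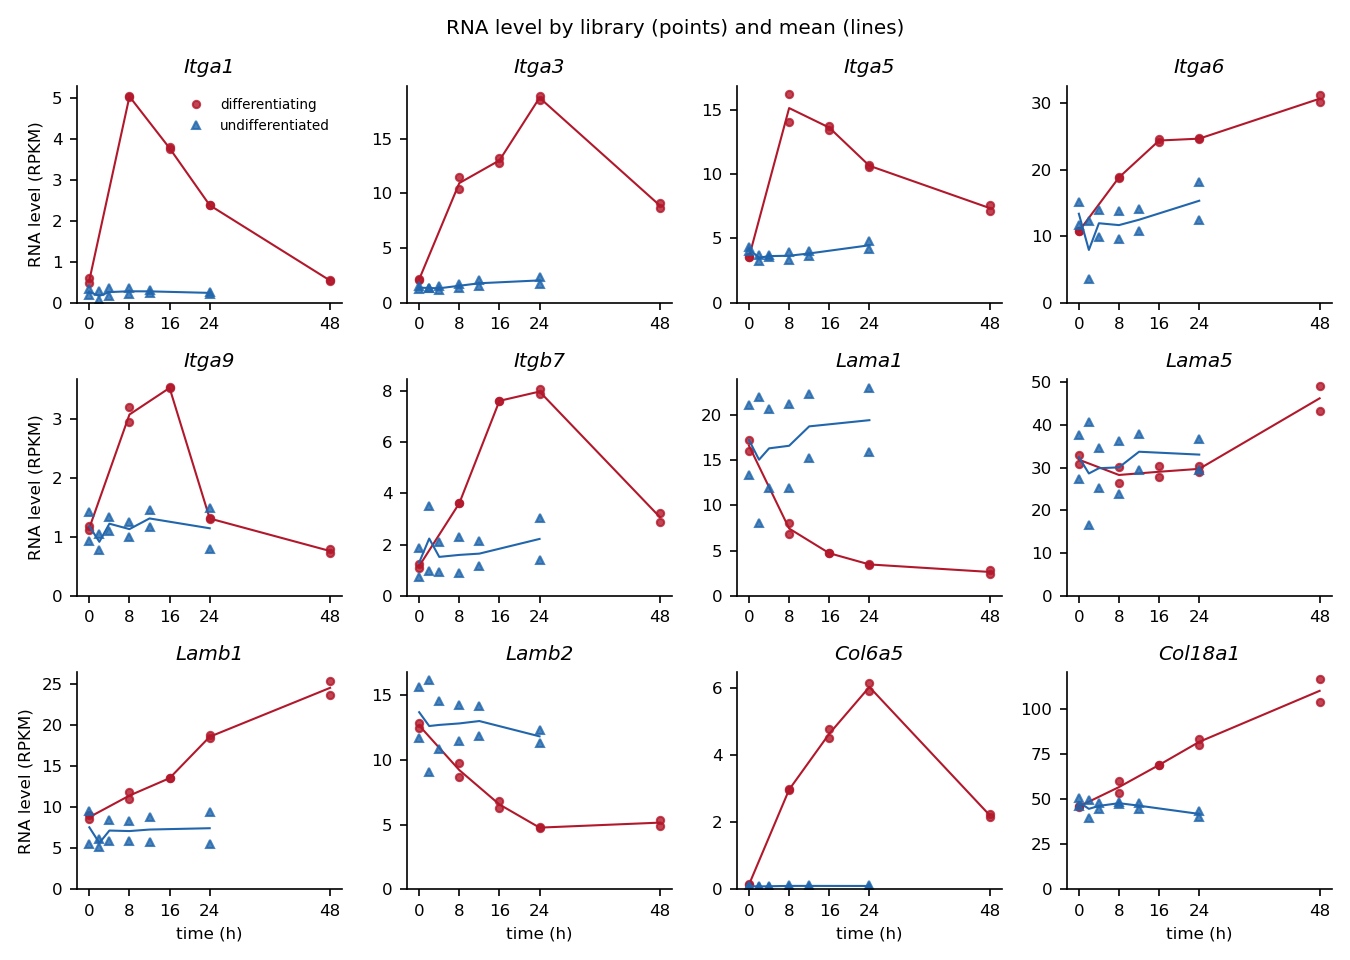
RPKM (vertical axes, 1 panel a gene, each with its own scale) against hours (horizontal axes) for 12 genes, with each library as a point; red circles are differentiating and blue triangles undifferentiated cells. Itga1, Itga5, Itga9 and Itgb7 pass through a maximum in differentiating cells, Col18a1, Itga6 and Lamb1 are highest at 48 h, and Lama1 and Lamb2 are highest at 0 h.

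Most of the tested genes changed in differentiating cells, as did most genes of the genome. At 48 h against 0 h, 16 of the 31 rose and 12 fell, by limma on log2(RPKM + 0.5) with Benjamini-Hochberg adjustment over all 12220 genes tested and a threshold of 0.05. In this comparison 84.3% of all genes were called, 44.4% as higher and 39.9% as lower, so the number of calls says little about these genes. The median absolute log2 change was 0.69 for the 31 genes and 0.44 for all genes tested. At 8 h 15 rose and 8 fell (74.2%), against 55.8% of all genes, and the median absolute log2 change was 0.36, against 0.16 for all genes. Changes of at least 2-fold were called in 8 of the 31 genes at 8 h, 7 of them higher, against 4.3% of all genes (2.71% higher and 1.6% lower). The filter takes the mean over the whole course, for these genes as for all genes. Col6a5, Col8a2, Col9a3 and Col20a1, with 0 h means of 0.134, 0.0426, 0.267 and 0.271 RPKM, passed it only through later times. Genes this low at 0 h could be tested only if they rose, which adds to the counts of rises. Col27a1 went the other way, with means of 1.03 RPKM at 0 h and 0.222 to 0.378 RPKM at later times. Its mean over the course was 0.459 RPKM, so it was not tested and is missing from the counts of falls. At 16 h 15 rose and 6 fell, where 70.9% of all genes were called, and at 24 h 13 rose and 11 fell, where 74.6% were called (35.8% higher and 38.8% lower). Changes of at least 2-fold numbered 8 higher and 1 lower at 16 h, where 7.74% of all genes had one (5.43% higher and 2.32% lower). At 24 h they numbered 7 higher and 2 lower, where 11.4% of all genes had one (7.28% higher and 4.09% lower), and at 48 h 8 higher and 4 lower, where 20.4% had one (13.9% higher and 6.51% lower). In bulk samples such as these, fewer cells of a type and less RNA per cell cannot be told apart.

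Several integrin alpha subunits changed early and by a large amount. Itga1, the alpha subunit of a collagen receptor, had 0.598 and 0.491 RPKM at 0 h, 5.05 and 5.03 RPKM at 8 h, 3.76 and 3.80 RPKM at 16 h, 2.38 and 2.38 RPKM at 24 h, and 0.544 and 0.535 RPKM at 48 h. It was high at 8 to 24 h and back within the range of the 0 h libraries at 48 h. Its log2 change was 2.41 ± 0.06 (SE) at 8 h (limma, adjusted p = 2.02e-11) and -0.01 ± 0.06 at 48 h (limma, adjusted p = 0.931). Itga5, which pairs with Itgb1 as the main fibronectin receptor, had 3.54 and 3.55 RPKM at 0 h, 16.2 and 14.1 RPKM at 8 h, 13.5 and 13.8 RPKM at 16 h, 10.6 and 10.7 RPKM at 24 h, and 7.59 and 7.13 RPKM at 48 h. Both libraries of every later time lay above both at 0 h. The log2 change of Itga5 was 1.95 ± 0.06 at 8 h and 0.96 ± 0.06 at 48 h (limma, adjusted p = 1.30e-10 and 1.24e-08).

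Itga3 and Itga6, alpha subunits of laminin receptors, also rose, with different courses. Itga3 had 2.11 and 2.16 RPKM at 0 h, 11.5 and 10.4 RPKM at 8 h, 13.2 and 12.8 RPKM at 16 h, 18.6 and 18.9 RPKM at 24 h, and 9.12 and 8.64 RPKM at 48 h. Its log2 change was 2.12 ± 0.05 at 8 h, 2.87 ± 0.05 at 24 h and 1.83 ± 0.05 at 48 h against 0 h (limma, adjusted p = 2.02e-11, 5.19e-13 and 8.94e-12), and it fell by 1.04 ± 0.05 between 24 and 48 h (limma, adjusted p = 3.53e-09). Itga6, long used as a surface marker of stem cells, had 10.7 and 10.7 RPKM at 0 h, 18.9 and 18.8 RPKM at 8 h, 24.7 and 24.2 RPKM at 16 h, 24.6 and 24.8 RPKM at 24 h, and 31.2 and 30.2 RPKM at 48 h. The log2 change of Itga6 was 1.47 ± 0.03 at 48 h (limma, adjusted p = 2.35e-12), and its 24 h and 16 h libraries overlapped. Itga6 made up 53.1% and 53.2% of the summed alpha subunit RPKM at 48 h, against 36.9% and 37.5% at 0 h. Itgav, the alpha subunit of vitronectin and other RGD receptors, made up 9.30% and 9.76% of that sum at 48 h, against 32.0% and 31.4% at 0 h. Its own level fell to 5.47 and 5.53 RPKM at 48 h, against 9.33 and 8.98 RPKM at 0 h, a log2 change of -0.69 ± 0.04 (limma, adjusted p = 1.66e-08).

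Itga9, whose product binds tenascin and other ligands, had 1.19 and 1.11 RPKM at 0 h, 3.19 and 2.95 RPKM at 8 h, 3.52 and 3.53 RPKM at 16 h, 1.30 and 1.33 RPKM at 24 h, and 0.791 and 0.729 RPKM at 48 h. Its libraries at 8 and 16 h lay above all others and those at 48 h below all others. The log2 change of Itga9 was 1.11 ± 0.06 at 8 h and -0.39 ± 0.06 at 48 h against 0 h (limma, adjusted p = 1.12e-08 and 3.79e-05). Between 16 and 24 h it fell by 1.15 ± 0.06, the 1 change of at least 2-fold among the 31 genes in that step, where 1.13% of all genes passed it. The leukocyte alpha subunit Itgal rose at 48 h by 0.48 ± 0.06 on the log2 scale, with 1.23 and 1.11 RPKM, against 0.722 and 0.664 RPKM at 0 h.

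Among the beta subunits, Itgb1 had 79.3 and 80.4 RPKM at 0 h, 92.0 and 97.8 RPKM at 8 h, 76.3 and 75.5 RPKM at 16 h, 76.5 and 73.1 RPKM at 24 h, and 61.1 and 63.0 RPKM at 48 h. It was higher at 8 h and lower at 48 h than at 0 h, with log2 changes of 0.25 ± 0.04 and -0.36 ± 0.04 (limma, adjusted p = 0.000204 and 2.63e-06). Itgb7, which elsewhere pairs with the alpha subunits of lymphocyte homing receptors, had 1.23 and 1.09 RPKM at 0 h, 3.61 and 3.60 RPKM at 8 h, 7.61 and 7.59 RPKM at 16 h, 7.85 and 8.08 RPKM at 24 h, and 3.24 and 2.90 RPKM at 48 h. The log2 change of Itgb7 was 2.35 ± 0.06 at 24 h and 1.10 ± 0.06 at 48 h (limma, adjusted p = 7.10e-12 and 2.83e-09). Itgb5, a partner of Itgav, changed late: it had 25.2 and 24.3 RPKM at 48 h, against 16.2 to 17.7 RPKM in the 8 earlier libraries. Itgb4, which pairs with Itga6 in hemidesmosomes, rose to 1.45 and 1.22 RPKM at 48 h, against 0.488 and 0.517 RPKM at 0 h, while Itgb3, another partner of Itgav, fell to 1.05 and 1.01 RPKM, against 1.53 and 1.44 RPKM at 0 h. In all, 7 of 12 integrin genes rose and 4 fell at 48 h, and 7 rose and 3 fell at 8 h. Most genes of the genome were called at both times too, with the shares given above.

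The laminin chains showed opposite changes within the alpha and the beta chains. Lama1, the alpha chain of the earliest embryonic laminin, had 17.2 and 16.0 RPKM at 0 h, 8.03 and 6.86 RPKM at 8 h, 4.72 and 4.72 RPKM at 16 h, 3.44 and 3.51 RPKM at 24 h, and 2.83 and 2.46 RPKM at 48 h. Its log2 change was -1.11 ± 0.07 at 8 h and -2.44 ± 0.07 at 48 h (limma, adjusted p = 1.17e-07 and 2.05e-11). Lama5, the alpha chain of the laminin most used to culture pluripotent cells, had 32.8 and 30.9 RPKM at 0 h, 30.2 and 26.4 RPKM at 8 h, 27.8 and 30.3 RPKM at 16 h, 29.0 and 30.4 RPKM at 24 h, and 49.0 and 43.3 RPKM at 48 h. Only its 48 h libraries lay above the rest, and its log2 change was 0.53 ± 0.07 (limma, adjusted p = 5.54e-05). The ratio of Lama5 to Lama1 RPKM was 17.4 and 17.6 at 48 h, against 1.91 and 1.93 at 0 h. Lama3, the alpha chain of an epithelial anchoring laminin, fell by 0.42 ± 0.04 at 8 h and by 0.17 ± 0.04 at 48 h.

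Lamb1 and Lamb2, alternative beta chains, crossed over. Lamb1 had 9.07 and 8.503 RPKM at 0 h, 11.9 and 10.96 RPKM at 8 h, 13.6 and 13.5 RPKM at 16 h, 18.4 and 18.8 RPKM at 24 h, and 25.5 and 23.7 RPKM at 48 h. Lamb2 had 12.8 and 12.5 RPKM at 0 h, 9.75 and 8.68 RPKM at 8 h, 6.26 and 6.85 RPKM at 16 h, 4.77 and 4.75 RPKM at 24 h, and 5.38 and 4.92 RPKM at 48 h. The log2 change at 48 h was 1.43 ± 0.05 for Lamb1 and -1.22 ± 0.06 for Lamb2 (limma, adjusted p = 7.53e-11 and 2.14e-09). The ratio of Lamb1 to Lamb2 RPKM was 0.708 and 0.680 at 0 h, 1.22 and 1.26 at 8 h, 2.17 and 1.98 at 16 h, 3.86 and 3.96 at 24 h, and 4.73 and 4.83 at 48 h. The summed beta chain RPKM was not constant. It lay between 19.8 and 31.5 over the 10 libraries and was highest in both 48 h libraries.

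Lamc1, the gamma chain of most laminins, was lower at every later time. It had 63.6 and 60.7 RPKM at 0 h, 58.6 and 52.7 RPKM at 8 h, 52.9 and 52.8 RPKM at 16 h, 45.1 and 45.4 RPKM at 24 h, and 37.9 and 34.9 RPKM at 48 h, a log2 change of -0.76 ± 0.05 at 48 h (limma, adjusted p = 3.81e-08). In all, 2 of 7 laminin genes rose and 5 fell at 48 h, and the family had a median log2 change of -0.76, against 0.03 for all genes tested. Most genes of the genome were also called at that time, with the share given above.

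Among collagens, Col18a1 had 45.5 and 46.1 RPKM at 0 h, 59.8 and 53.3 RPKM at 8 h, 69.0 and 68.7 RPKM at 16 h, 80.0 and 83.3 RPKM at 24 h, and 116 and 104 RPKM at 48 h. It rose at each step, and its log2 change was 1.25 ± 0.06 at 48 h (limma, adjusted p = 1.57e-09). The type IV chains of the basement membrane moved little. Col4a1 had 8.28 and 7.62 RPKM at 48 h, against 7.81 and 8.17 RPKM at 0 h, and Col4a2 had 3.25 and 2.95 RPKM at 48 h, against 3.33 and 3.35 RPKM at 0 h. Their log2 changes were -0.01 ± 0.05 and -0.09 ± 0.06, and neither passed the test (limma, adjusted p = 0.898 and 0.135).

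Col6a5, a chain of the type VI microfibril collagen, had 0.143 and 0.125 RPKM at 0 h, 2.99 and 2.95 RPKM at 8 h, 4.77 and 4.50 RPKM at 16 h, 5.90 and 6.16 RPKM at 24 h, and 2.25 and 2.15 RPKM at 48 h. It was the 1 type VI chain that averaged at least 0.5 RPKM. Its log2 change, which the pseudocount of 0.5 RPKM makes smaller than the ratio of the levels, was 2.45 ± 0.05 at 8 h, 3.36 ± 0.05 at 24 h and 2.09 ± 0.05 at 48 h (limma, adjusted p = 8.84e-12, 2.33e-13 and 4.02e-12). Col8a2, a short-chain network collagen, had 1.02 and 0.892 RPKM at 8 h and 0.852 and 0.868 RPKM at 48 h, against 0.0552 and 0.0300 RPKM at 0 h. Col9a3, a fibril-associated chain, rose late: it had 2.42 and 2.26 RPKM at 48 h, against 0.249 to 0.559 RPKM in the 8 earlier libraries, a log2 change of 1.89 ± 0.06 against 0 h (limma, adjusted p = 2.61e-11). Its partner Col9a2 fell by 0.55 ± 0.07 on the log2 scale.

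The fibrillar collagens, which bear the load of connective tissue, were low. Col2a1, the cartilage collagen, had 3.80 and 3.53 RPKM at 48 h, against 2.08 and 2.25 RPKM at 0 h, and Col5a3 had 1.63 and 1.41 RPKM, against 1.10 and 1.20 RPKM; both rose, with log2 changes of 0.65 ± 0.06 and 0.29 ± 0.06. Col1a1 had 0.207 and 0.228 RPKM at 48 h, against 1.22 and 1.25 RPKM at 0 h, and Col5a1 had 2.77 and 2.58 RPKM, against 4.04 and 3.86 RPKM; both fell, with log2 changes of -1.27 ± 0.05 and -0.49 ± 0.06. In all, 7 of 12 collagen genes rose and 3 fell at 48 h, and 6 rose and 1 fell at 8 h. The rises at 48 h include Col6a5, Col8a2, Col9a3 and Col20a1, which passed the filter only through later times. All of these but Col9a3 are also among the rises at 8 h. Such genes could be counted only as rises, so the collagen counts lean that way. As for the integrins, most genes of the genome were called at both times.

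**Figure D2:**
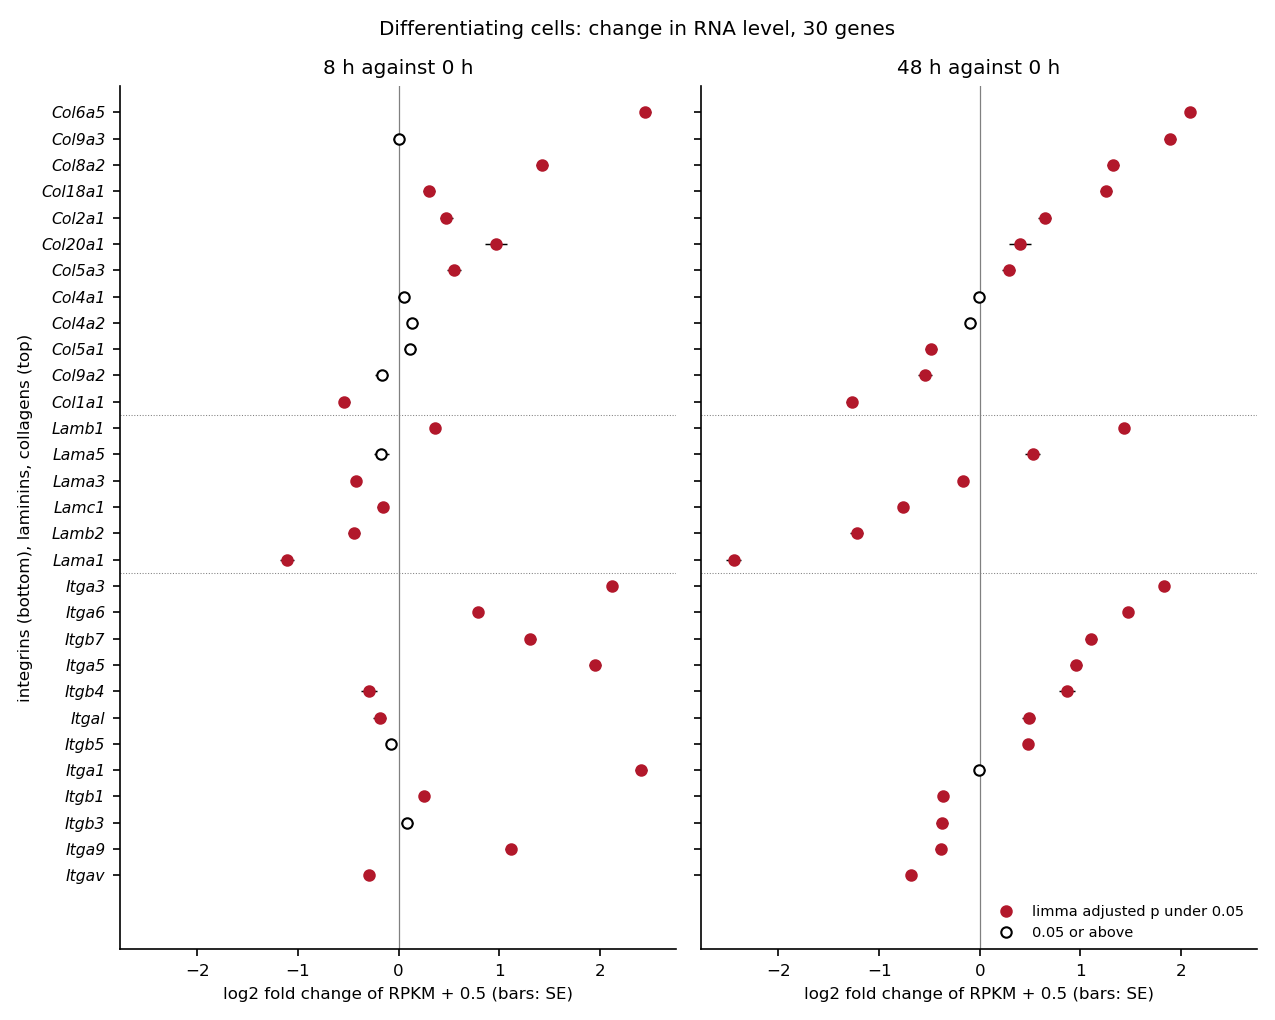
Log2 fold change of RPKM + 0.5 (horizontal axes; bars are SE) at 8 h (left) and 48 h (right) against 0 h in differentiating cells for 30 genes, grouped by family; filled points have a limma adjusted p under 0.05. Itga1 stands at 2.41 in the left panel and -0.01 in the right one, while Col9a3 stands near 0 at 8 h and at 1.89 at 48 h.

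The times of the maximum differed among the 31 genes. The highest mean was at 0 h for 6 genes, at 8 h for 9, at 16 h for 4, at 24 h for 4 and at 48 h for 8. From each time to the next the mean level was higher at every step for Col18a1, Itga6 and Lamb1, lower at every step for Lama1 and Lamc1, and mixed for 26 genes. In the step from 8 to 16 h 12 genes rose and 11 fell, where 61.0% of all genes were called; none of the 31 changed by 2-fold or more in that step, against 1.69% of all genes (1.3% higher and 0.385% lower). Between 16 and 24 h 6 rose and 15 fell, where 51.2% were called. Between 24 and 48 h 9 rose and 16 fell, where 79.0% were called; 51.6% of the 31 genes were lower in that step, against 35.0% of all genes. Changes of at least 2-fold in the last step were seen in 1 gene that rose, Col9a3, and in 4 that fell, Itga1, Col6a5, Itgb7 and Itga3, where 6.75% of all genes were that much higher and 3.26% that much lower.

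Genes that process, bind or cut these proteins were counted over 4 lists at 48 h, where 84.3% of all genes were called (44.4% higher and 39.9% lower). Of 25 genes tested for collagen modification and secretion, 9 rose and 11 fell. The lysyl hydroxylase Plod2 rose to 31.3 ± 2.61 RPKM at 48 h, against 6.11 ± 0.734 RPKM at 0 h (SD, n = 2 each), a log2 change of 2.27 ± 0.09 (limma, adjusted p = 1.69e-09). The collagen chaperone Serpinh1 fell to 33.8 ± 0.382 RPKM at 48 h, against 91.3 ± 1.33 RPKM at 0 h (SD, n = 2 each), a log2 change of -1.42 ± 0.04 (limma, adjusted p = 2.54e-11). The crosslinking enzymes of the lysyl oxidase family split: Loxl2 and Loxl1 rose by 1.502 ± 0.05 and 1.22 ± 0.07, and Loxl4 fell by 2.74 ± 0.06. The procollagen protease enhancers Pcolce and Pcolce2 fell by 1.39 ± 0.06 and 2.34 ± 0.04, and the folding factor Fkbp10 rose by 1.56 ± 0.08.

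Of 19 basement membrane partners tested, 7 rose and 9 fell. Nid1, the nidogen that links laminin to type IV collagen, fell to 17.6 ± 1.70 RPKM at 48 h, against 38.4 ± 1.66 RPKM at 0 h (SD, n = 2 each), and Ntn1, a netrin with laminin-like domains, fell by 2.97 ± 0.07 on the log2 scale. Pxdn, a peroxidase that crosslinks type IV collagen, and Npnt, an integrin ligand, rose by 2.27 ± 0.06 and 1.75 ± 0.07, as did the collagen receptor kinase Ddr1 (1.24 ± 0.06) and the laminin receptor Dag1 (0.73 ± 0.05). Fbn2 and Smoc1 fell by 0.82 ± 0.06 and 0.59 ± 0.05. Of 34 integrin adaptors and signalling genes, 14 rose and 14 fell. Those with the largest changes were the kinase Ptk2b (1.81 ± 0.07), Tns2 (1.81 ± 0.06), Bcar1 (1.78 ± 0.06) and Zyx (1.53 ± 0.07), which rose, and Tns1 (-1.68 ± 0.08), Src (-1.18 ± 0.06), Cd9 (-0.91 ± 0.04) and Fermt2 (-0.53 ± 0.03), which fell. Of 19 matrix proteases and inhibitors 10 rose, among them the metalloproteases Mmp25 (3.57 ± 0.06), Mmp2 (2.99 ± 0.06) and Adamts1 (2.55 ± 0.06) and the inhibitor Timp3 (1.63 ± 0.05). Another 7 fell, among them Ctsb (-1.24 ± 0.04), Ctsl (-0.82 ± 0.04) and Adam10 (-0.69 ± 0.04).

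Markers of other cells that make these proteins moved with the course. The summed level of 10 primitive endoderm markers, of 13 listed, was 25.1 and 23.9 RPKM at 48 h, against 7.69 and 7.13 RPKM at 0 h; 3 of the 7 tested rose and 3 fell, and none was at 0. Much of that sum was Lrp2, with 16.4 ± 0.412 RPKM at 48 h, against 1.42 ± 0.161 RPKM at 0 h (SD, n = 2 each). Srgn and Dab2 also rose, to means of 4.40 and 2.06 RPKM, against 1.63 and 1.12 RPKM. Hnf4a, Thbd and Sox7 fell to means of 0.302, 0.192 and 0.2215 RPKM, against 1.305, 0.744 and 0.491 RPKM. The factors Gata4 and Sox17 were at 0.235 ± 0.00807 and 0.140 ± 0.0119 RPKM at 48 h, against 0.122 ± 0.00776 and 0.104 ± 0.0233 RPKM at 0 h. Gata6, Pdgfra and Foxa2, also listed, had no values in this course. The summed level of 5 fibroblast or feeder markers, of 12 listed, was 34.1 and 31.9 RPKM at 48 h, against 8.45 and 8.08 RPKM at 0 h; all 3 tested rose, none was at 0, and Thy1 made up most of the sum (28.7 ± 1.68 RPKM at 48 h, against 6.16 ± 0.157 RPKM at 0 h). The summed level of 6 endothelial or blood markers, of 8 listed, was 25.2 and 24.2 RPKM at 48 h, against 21.1 and 20.9 RPKM at 0 h; 1 of 3 tested rose, none fell and none was at 0. At 8 h, where the integrin changes were large, 5 of the 7 primitive endoderm markers tested rose and 1 fell, 3 of them by at least 2-fold, and their sum was 19.5 and 17.6 RPKM. Amn, of that list, had 0.436 ± 0.0206 RPKM at 0 h, 2.58 ± 0.0968 RPKM at 8 h and 0.333 ± 0.00293 RPKM at 48 h, and the endothelial receptor Kdr had 0.0842 ± 0.00746, 3.84 ± 0.462 and 0.0385 ± 0.00098 RPKM at those times (SD, n = 2 each). Kdr was the 1 gene of its list called at 8 h, of 3 tested. The others tested, Pecam1 and Tek, had 19.4 ± 0.447 and 1.66 ± 0.0948 RPKM at 8 h, against 18.6 ± 0.204 and 1.78 ± 0.0996 RPKM at 0 h. Gata4 and Sox17 were at 0.0715 ± 0.00624 and 0.0782 ± 0.0151 RPKM at 8 h. The fibroblast sum was 21.6 and 21.1 RPKM at 8 h, 42.1 and 41.0 RPKM at 16 h, and 42.5 and 44.2 RPKM at 24 h, with 2 of 3 tested markers higher at 8 h and all 3 at 16 and 24 h. The endothelial or blood sum was 26.4 and 25.1 RPKM at 8 h and 14.7 and 14.9 RPKM at 24 h. Pecam1 alone made up most of that sum, with 9.05 ± 0.0268 RPKM at 24 h and 18.5 ± 0.838 RPKM at 48 h. Most genes of the genome were called at each of these times, with the shares given above, so the marker counts say little by themselves. Acta2, Amn, Sox7 and Kdr had 0 h means of 0.111, 0.436, 0.491 and 0.0842 RPKM. They passed the filter of 0.5 RPKM only through later times, which adds to the counts of rises. The part of such cells in the changes above was not tested.

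In undifferentiated cells no change of these genes was detectable beyond the spread of the replicates, which was wide: the median SE of a log2 change was 0.35, against 0.06 in differentiating cells. Of 31 genes tested there, 0 were called at 2, 4, 8, 12 or 24 h of doxycycline against 0 h by limma, and 0 had an unadjusted p under 0.05. Over all 11612 genes tested 0.0% were called at 2 h and 0.00861% (1 gene) at each later time. Itga3 had 2.34 and 1.73 RPKM at 24 h, against 1.51 and 1.24 RPKM at 0 h; Lamb1 had 9.38 and 5.49 RPKM, against 9.55 and 5.55 RPKM; and Col18a1 had 43.3 and 40.0 RPKM, against 46.0 and 50.6 RPKM. The replicates differed from each other. Without both 2 h libraries, the 5 libraries numbered 1 and the 5 numbered 2 did not overlap for 21 of 31 genes, with 15 higher in number 2 and 6 higher in number 1, and the same held for 50.4% of all genes. Lamb1, for example, was at 8.27 to 9.55 RPKM in these libraries numbered 1 and at 5.49 to 5.91 RPKM in those numbered 2, and had 5.15 and 6.12 RPKM at 2 h.

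With the library number as a block and without the 2 h library that stands apart, an alternative chosen after the data were seen, 2 of 31 genes were called at 24 h, where 2.14% of all genes were called. Itga3 was higher by 0.43 ± 0.08 and Itgb7 by 0.60 ± 0.10 on the log2 scale (limma, adjusted p = 0.0332 and 0.0174), and each was higher at 24 h than at 0 h in both library numbers. Itgb7 had 3.04 and 1.39 RPKM at 24 h, against 1.87 and 0.731 RPKM at 0 h. If the other 2 h library is left out, so that only the one that stands apart remains, 8 of 30 genes were called lower at 2 h, where 51.3% of all 11603 genes were called in either direction; with that library left out instead, 0 were called.

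The change in differentiating cells was set against the change in undifferentiated cells at 8 and 24 h, the times both RNA courses share, as an interaction in 1 limma model of all 22 RNA libraries. For 6 of 32 genes tested the 8 h changes differed, where 3.99% of all 11865 genes were called. The difference (differentiating minus undifferentiated, log2) was 2.43 ± 0.13 for Col6a5, 2.37 ± 0.23 for Itga1, 2.12 ± 0.16 for Itga5, 2.00 ± 0.22 for Itga3, 1.15 ± 0.27 for Itga9 and -0.95 ± 0.20 for Col27a1, a fibrillar collagen (limma, adjusted p = 1.20e-07, 2.93e-05, 3.20e-06, 7.53e-05, 0.0280 and 0.0164). In undifferentiated cells Itga1 had 0.206 and 0.349 RPKM at 8 h, against 0.175 and 0.342 RPKM at 0 h, and Itga5 had 3.97 and 3.33 RPKM, against 4.06 and 4.30 RPKM. Over all 12 undifferentiated libraries Col6a5 was at 0.0587 to 0.128 RPKM and Itga1 at 0.0574 to 0.353 RPKM. Both genes passed the filter of 0.5 RPKM through the differentiating libraries. At such levels the pseudocount keeps a change small, so their difference is largely the change in differentiating cells. Without the 2 h library that stands apart the same 6 genes were called, with the same differences and smaller errors, and 10.5% of all genes.

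At 24 h the changes differed for 9 of the 32 genes, where 11.9% of all genes were called. The difference was 3.35 ± 0.13 for Col6a5, 2.44 ± 0.22 for Itga3, 1.497 ± 0.23 for Itga1, 1.38 ± 0.16 for Itga5 and 1.04 ± 0.17 for Col18a1 (limma, adjusted p = 1.56e-09, 4.16e-06, 0.000522, 5.34e-05 and 0.000758). It was -2.28 ± 0.57 for Lama1, -1.13 ± 0.32 for Lamb2, -0.80 ± 0.20 for Col27a1 and -0.53 ± 0.15 for Itgb3 (limma, adjusted p = 0.0174, 0.0336, 0.0179 and 0.0374). In undifferentiated cells Lama1 had 15.9 and 22.9 RPKM at 24 h, against 13.3 and 21.1 RPKM at 0 h. Without the 2 h library that stands apart, 13 genes were called, with Col2a1 (1.16 ± 0.37), Itga6 (0.99 ± 0.29), Itgb7 (1.75 ± 0.57) and Lamc1 (-0.45 ± 0.13) added, and 24.4% of all genes. The calls of Itga9 at 8 h, of Lama1, Lamb2 and Itgb3 at 24 h, and of Col27a1 at both times were lost when single other libraries were left out; for Lama1 the adjusted p was then 0.0518 to 0.0838 in 6 of the runs.

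**Figure D3:**
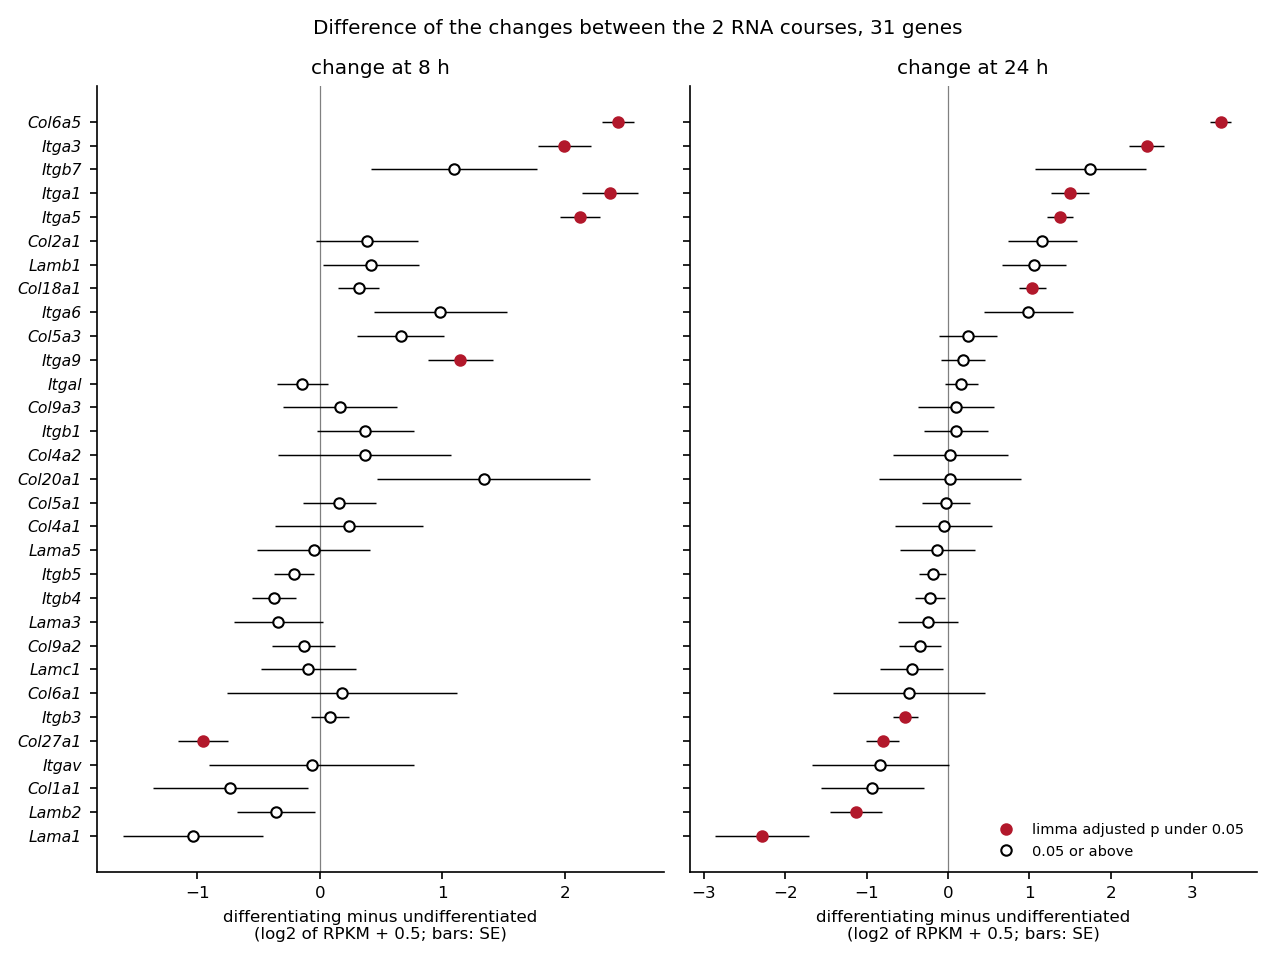
Change in differentiating minus change in undifferentiated cells (log2 of RPKM + 0.5, horizontal axes; bars are SE) at 8 h (left) and 24 h (right) for 31 genes; filled points have a limma adjusted p under 0.05. Col6a5 lies farthest to the right in both panels (2.43 and 3.35), and Lama1 farthest to the left at 24 h (-2.28).

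Nascent transcription in undifferentiated cells likewise gave no call. PRO-seq levels were tested at 24 h against 0 h from allele-assigned read sums with edgeR's quasi-likelihood test for 48 of the 54 genes. None was called, where 0.0119% of all 16870 genes were called, and 3 had an unadjusted p under 0.05: Col9a2 (-1.03 ± 0.30), Itga6 (0.28 ± 0.12) and Lama1 (0.25 ± 0.09). Without the 0 h library B, which leaves 1 library at 0 h that is assumed to vary like the others, 3 genes were called, and 7.56% of all genes. Lama1 had 25.2 and 22.7 RPKM at 24 h, against 15.2 and 22.2 RPKM at 0 h, and Itga6 had 7.22 and 7.97 RPKM, against 6.01 and 7.13 RPKM. The genes with the largest changes in differentiating cells spanned a wide range of nascent levels in undifferentiated cells. At 0 h Itga5 had 3.56 and 5.43 RPKM, Itga3 had 2.37 and 2.26 RPKM, Itga1 had 0.205 and 0.368 RPKM, and Col6a5 had 0.0783 and 0.0935 RPKM. Across the 54 genes at 0 h the nascent RPKM and the RNA RPKM of the differentiating course had a Spearman rho of 0.802, a description over genes that are not independent. Some genes stood off that relation. Itgb1 had a nascent mean of 4.797 RPKM and an RNA mean of 79.8 RPKM, while Itga10 had a nascent mean of 3.29 and an RNA mean of 0.215 RPKM, and the platelet subunit Itga2b 2.46 and 0.0796 RPKM. Itga10 shares 33.5% of its exon bases with Gm42957 on the same strand, so its reads are uncertain.

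The 2 parental alleles of these genes can be told apart by their sequence variants, and the B6 share is the part of allele-assigned reads that carry the B6 base. In RNA of differentiating cells at 0 h the B6 share was off 50% for 23 of 24 genes tested, 11 towards B6 and 12 towards Cast (limma on the log2 odds), where 55.8% of all 10225 genes were called. In nascent RNA of undifferentiated cells at 0 h it was off for 22 of 36 genes, 13 towards B6 and 9 towards Cast (edgeR), where 34.7% of all 13392 genes were called. Without single PRO-seq libraries the count was 12 to 19, the lowest without the 0 h library B, where 23% of all genes were called. Of 23 genes in both tests 14 were past the threshold in both, and 13 of these lay on the same side, against 1772 of 2148 genes (82.5%) among all genes past both. Itgb3 lay on opposite sides, with a log2 ratio of B6 to Cast of -0.76 ± 0.29 in nascent and 0.43 ± 0.07 in messenger RNA; its nascent call was lost on leaving out any of the 4 replicated PRO-seq libraries. The way reads were assigned to an allele is not given in the labels, and a pull of the alignment towards the B6 reference was not tested. The median over all genes was 0.06 in nascent and 0.05 in messenger RNA.

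For several genes nascent and messenger RNA gave like ratios. Itgb5 had a log2 ratio of B6 to Cast of 1.13 ± 0.11 in nascent and 1.18 ± 0.06 in messenger RNA, Itga3 1.79 ± 0.36 and 2.05 ± 0.10, and Col4a1 -1.24 ± 0.20 and -1.09 ± 0.07. For others the 2 readouts were far apart, a difference that was not tested. Itga1 had -0.07 ± 0.24 in nascent and -2.90 ± 0.16 in messenger RNA, and Lama1 -0.19 ± 0.07 and -1.32 ± 0.04, while Lama3 had -1.51 ± 0.13 and -0.28 ± 0.05. The nascent reads of Lama1 were many: 1618 of 3493 at 0 h in library A carried the B6 base (46.3%, 95% Wilson interval 44.7 to 48.0%) and 2806 of 5952 in library B (47.1%, 45.9 to 48.4%). The span of Itga1 holds Pelo and 44.8% of it overlaps Gm49395, both on the same strand, so that nascent reads within it may belong to another gene. Some genes were far off 50% in nascent RNA and not tested in messenger RNA. They were Lamb3 (-3.90 ± 0.36), Col26a1 (3.497 ± 0.47), Col22a1 (2.84 ± 0.53), Itgal (2.37 ± 0.53), Itga7 (2.19 ± 0.53) and Itga10 (-2.09 ± 0.33). The calls of Itgal and Itga7 were lost without the 0 h library B (edgeR, adjusted p = 0.0774 and 0.0533). Lamb3 had 5 of 104 and 10 of 137 B6 reads at 0 h. Of its span 13.6% overlaps 4930570N18Rik on the same strand, so some nascent reads may belong to that gene. In RNA of differentiating cells Lamb3 had a share in 4 libraries, at no more than 0.647 RPKM. These shares were 43.5% and 12.1% at 16 h and 68.2% and 55.0% at 48 h. For Itga10, 39.7% of the span overlaps Gm42957 on the same strand, so its nascent ratio is uncertain too. Its RNA shares in differentiating cells were 40% to 90.9% in 7 libraries, at no more than 0.464 RPKM.

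**Figure D4:**
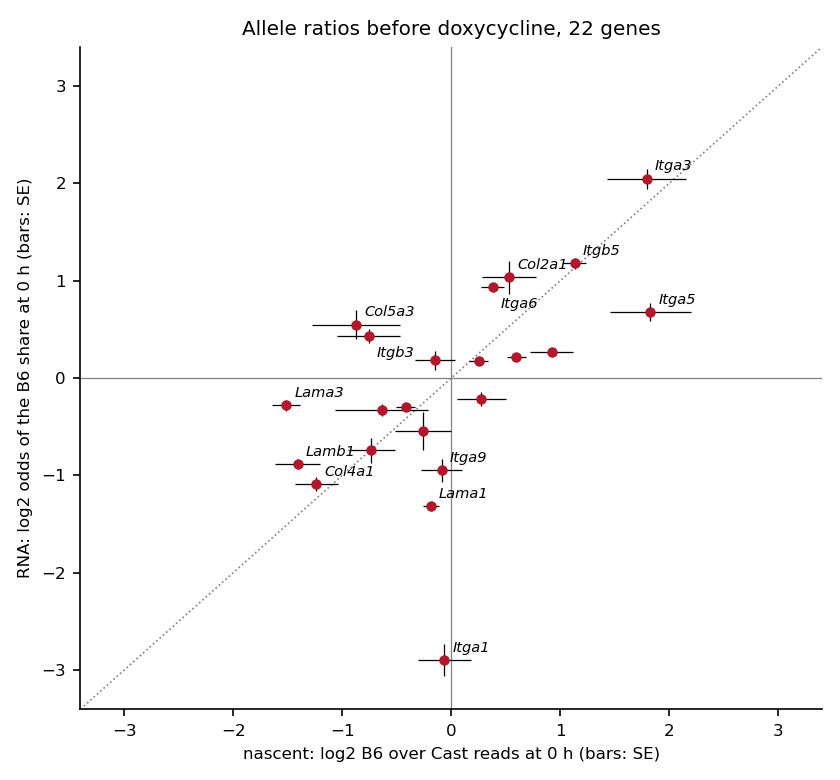
Log2 odds of the B6 share in messenger RNA of the differentiating course (vertical axis) against the log2 ratio of B6 to Cast reads in nascent RNA of undifferentiated cells (horizontal axis), both at 0 h, for 22 genes; each point is a gene, bars are SE and the dotted line marks equal values. Itga3 and Itgb5 lie towards B6 and Col4a1 and Lamb1 towards Cast in both, whereas Itga1 and Lama1 lie near 0 in nascent RNA and well towards Cast in messenger RNA.

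The B6 share of many of these genes changed during differentiation, with shifts in both directions. At 48 h against 0 h it rose for 6 and fell for 7 of 24 genes (limma on the log2 odds, 54.2%), where 22.9% of all 10225 genes were called. Changes of at least 2-fold in the odds were called for 6 of the 24 genes, against 6.27% of all genes. Col4a1, Col5a3, Itgb3 and Itgb7 lost their call when single libraries were left out.

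The largest rises were those of Itga9 and Itga1. Itga9 had a B6 share of 36.7% and 31.1% at 0 h, 81.8% and 82.8% at 8 h, 82.2% and 77.6% at 16 h, 78.0% and 78.5% at 24 h, and 69.4% and 71.7% at 48 h. Both libraries of every later time lay above both at 0 h, and the log2 odds rose by 2.18 ± 0.17 at 48 h (limma, adjusted p = 0.000225). Itga1 had 8.77% and 13.8% at 0 h, 45.2% and 46.1% at 8 h, 48.5% and 45.4% at 16 h, 50.2% and 43.9% at 24 h, and 31.4% and 34.8% at 48 h, and its log2 odds rose by 1.91 ± 0.23 (limma, adjusted p = 0.00164). The depth behind these RNA shares is unknown, and at 0 h and 48 h Itga1 was below 0.6 RPKM. The share of Lamb1 was 44.0% and 43.9% at 48 h, against 34.5% and 35.2% at 0 h, and Lama3 had 58.3% and 55.9%, against 45.2% and 45.0%.

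Other shares moved towards Cast. Itgb5 had 69.3% and 70.2% at 0 h, 59.3% and 60.2% at 8 h, 64.2% and 63.6% at 16 h, 58.9% and 60.4% at 24 h, and 41.8% and 38.6% at 48 h, and its log2 odds fell by 1.74 ± 0.08 (limma, adjusted p = 2.79e-05). Itga3 had 78.4% and 83.6% at 0 h, 69.7% and 69.2% at 8 h, 70.3% and 71.4% at 16 h, 66.8% and 65.7% at 24 h, and 57.6% and 56.7% at 48 h, a fall of 1.64 ± 0.15 (limma, adjusted p = 0.000419). Itga6 had 55.4% and 55.5% at 48 h, against 66.4% and 65.5% at 0 h. Lama1 had 28.3% and 28.1% at 0 h, 37.9% and 39.3% at 8 h, 38.0% and 37.8% at 16 h, 33.0% and 33.5% at 24 h, and 22.4% and 22.3% at 48 h, so that it was higher at 8 to 24 h and lower at 48 h than at 0 h. Col18a1 and Lama5, by contrast, had shares of 52.7% to 54.0% and of 41.2% to 45.4% over all 10 libraries, and their 48 h test was not passed (limma, adjusted p = 0.676 and 0.924).

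**Figure D5:**
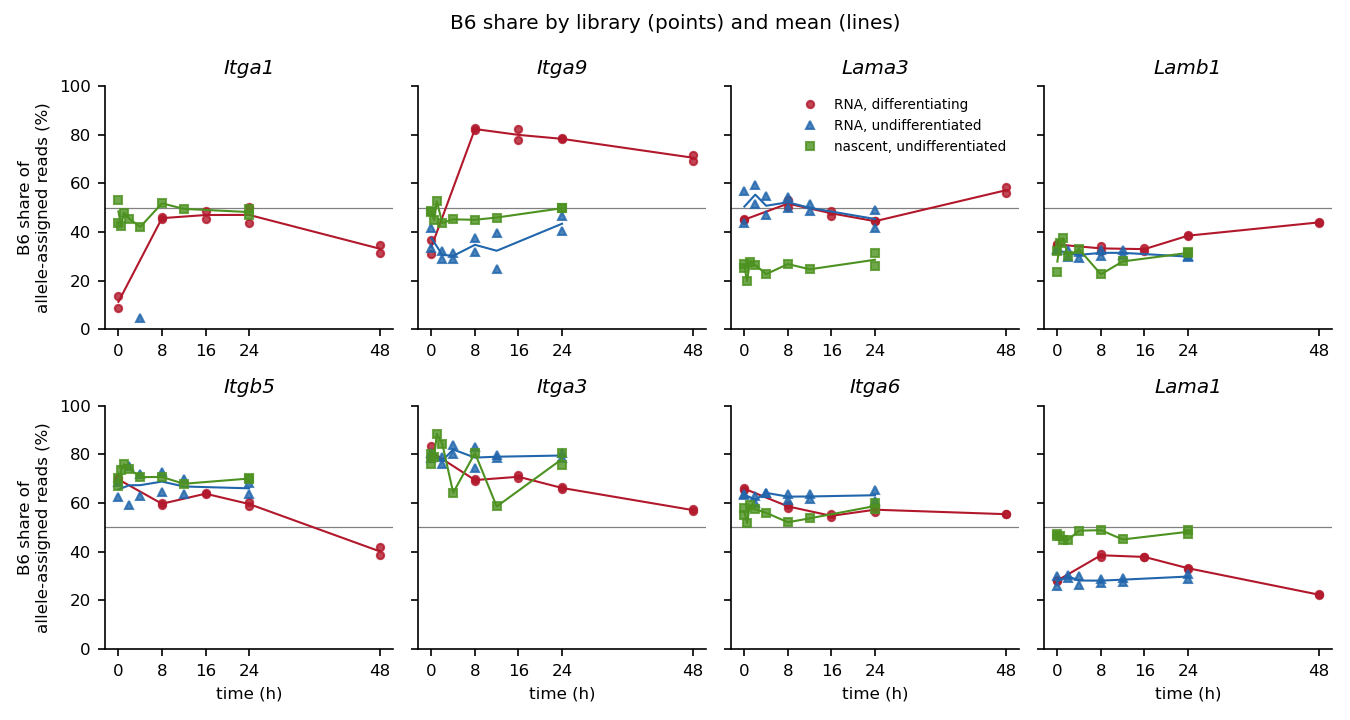
B6 share of allele-assigned reads in percent (vertical axes) against hours (horizontal axes) for 8 genes, with each library as a point, for RNA of differentiating cells, RNA of undifferentiated cells and nascent RNA of undifferentiated cells. In differentiating cells Itga9 and Itga1 are higher at 8 h than at 0 h and Itgb5 and Itga3 are lowest at 48 h.

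In undifferentiated cells the share of none of these genes was called at 24 h against 0 h, either in RNA (0 of 24 genes by limma, 0 at an unadjusted p under 0.05, where 0.873% of all 9854 genes were called) or in nascent RNA (0 of 36 by edgeR, 2 at an unadjusted p under 0.05, where 0.844% of all 13392 genes were called). Itga9 had an RNA share of 46.5% and 40.3% at 24 h, against 41.6% and 33.3% at 0 h, and a nascent share of 49.7% and 49.8% at 24 h, against 48.4% and 48.5% at 0 h. Itgb5 had an RNA share of 68.5% and 63.7% at 24 h, against 68.7% and 62.6% at 0 h, and a nascent share of 69.7% and 70.5%, against 66.9% and 70.1%. For Itga1 the undifferentiated RNA table gives a share in 1 of 12 libraries, and no comparison was made.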

How the data were processed

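The authors deposited 1 table for each course. The mRNA-seq tables hold RPKM values and the B6 fraction of allele-assigned reads per gene, with no read counts, so the depth behind an RNA fraction is unknown. The PRO-seq table deposited by the authors holds B6, Cast and summed read counts, the B6 fraction and RPKM. Per the submitters' processing notes the tools were HTSeq 0.6.1, TopHat2 2.1.0, Bowtie 1.0.0, cutadapt 1.8.2 and SAMtools, on mm10; which step each served is not given. RNA libraries were made with a stranded mRNA kit, per the labels' protocols. Columns that belong to no sample numbered 0.

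RNA levels were tested with limma 3.58.1 (trend, robust) on log2(RPKM + 0.5) where the mean was at least 0.5 RPKM, with all libraries of a course in 1 fit. RNA shares were tested with limma on the log2 odds of the B6 fraction with a pseudocount of 0.01, where the mean was at least 1 RPKM with a share in every library; this is the branch of the design for tables without counts. PRO-seq counts were tested with edgeR 4.0.16 (quasi-likelihood, robust, TMM, filterByExpr for levels); the model of allele counts held library, allele and their change with time, where the mean was at least 20 allele reads, and its 24 h value is the change in the B6 share. All tests were two-sided, with Benjamini-Hochberg adjustment across every gene in the fit and 0.05 as the threshold. The single-library PRO-seq times add nothing to the spread. The fits were tested on simulated data. R 4.3.3, Python 3.11.15, pandas 2.3.3, SciPy 1.17.1 and matplotlib 3.10.9 were used. Wilson intervals are at 95% and cover counting error only, as reads carry no molecular identifiers.

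RNA depth was estimated from whole-read steps of RPKM: 87.8 to 93.2% of the 600 lowest values tried in a library came out within 0.1 read of a whole number. No count test was run on RNA. Labels give 2 libraries at every RNA time, while the growth and treatment text speaks of duplicates for undifferentiated RNA at 0 and 24 h alone. In that course, deviations of same-numbered libraries from their time means correlated at 0.327 to 0.902 between every pair of times. The numbers were therefore taken to pair the libraries in the block alternative, which comes from the data, not from a label. The main tests of that course and the interaction tests did not use the pairing, so their SE includes the difference between library numbers. The A and B libraries of PRO-seq form only 2 pairs and were not taken as paired.

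The members and lists were chosen with earlier results of these data known. Genes were named where they passed the threshold at 48 h with a highest group mean of at least 2 RPKM (up to 15 a direction), where they were among the 4 highest of their family, where they passed in another comparison (up to 8 a direction) and where they had up to 4 of the largest changes a direction in a pathway list. Genes outside this rule were chosen after their values were seen. Among those tested at 48 h they were Col8a2, Col1a1, Itgal, Itgb4 and Itgb3, and in the nascent comparison Itga2b. Among markers they were Gata4, Sox17, Lrp2, Srgn, Dab2, Hnf4a, Thbd, Sox7, Amn, Kdr, Pecam1, Tek, Thy1, Acta2 and Fgf5. Alternatives were DESeq2 1.42.0, other filters and pseudocounts, other scalings, the replicate block and leaving out each library. Counts and medians cover every gene tested; some single-gene values are not reported here.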

Additional observations from a re-analysis of the deposited data

Results flagged for a closer look

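Genes are given here because their change since 0 h differed between differentiating and undifferentiated cells by the interaction test (limma, all 22 RNA libraries). At 8 h the difference (differentiating minus undifferentiated, log2) was 2.43 for Col6a5, 2.37 for Itga1, 2.12 for Itga5, 2.0 for Itga3, 1.15 for Itga9 and -0.953 for Col27a1. At 24 h it was 3.35 for Col6a5, 2.44 for Itga3, 1.5 for Itga1, 1.38 for Itga5, 1.04 for Col18a1, -0.527 for Itgb3, -0.803 for Col27a1, -1.13 for Lamb2 and -2.28 for Lama1. Differentiation state and library batch cannot be told apart in these differences. Col6a5 and Itga1 were low in undifferentiated cells and passed the filter through the differentiating libraries.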

How the results depend on the processing

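Over the single-gene results 648 values kept their direction and their side of the threshold, 63 lost the call and 0 reversed; no named call on the level in differentiating cells against 0 h was lost. Counts of genes called moved by more than 1.5 times as follows, with the cause not tested beyond the number of genes each filter admits. With no filter on low values the counts were 36 at 16 h, 42 at 24 h, 48 at 48 h (34 higher) and 44 for 48 h against 24 h. With a mean of at least 2 RPKM, 10 genes were higher at 48 h and the RNA courses differed for 2 genes at 8 h and 5 at 24 h. With a mean of at least 5 RPKM, 7 B6 shares changed at 48 h and 14 were off 50% at 0 h. With no filter beyond 1 read, 1 nascent level was called. With a replicate block alone, 0 undifferentiated RNA levels and 0 RNA shares were called; in PRO-seq the replicate block gave 0 levels, 0 shares and 22 genes off 50%, so it changed no other count. With the replicate block and without the 2 h library that stands apart, 2 genes were called at 24 h.

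Leaving out each library in turn gave 21 to 25 genes called at 8 h, 21 to 23 at 16 h, 21 to 23 at 24 h and 28 to 30 at 48 h (15 to 18 higher, 12 to 13 lower) in differentiating cells. It gave 16 to 21 for 16 h against 8 h, 17 to 19 for 24 h against 16 h and 24 to 25 for 48 h against 24 h. It gave 0 to 8 at 2 h and 0 to 0 at 4, 8, 12 and 24 h in undifferentiated cells, and 4 to 6 (8 h) and 5 to 13 (24 h) for the difference between the courses. For B6 shares it gave 9 to 12 at 48 h, 19 to 21 off 50% in RNA and 0 to 0 in undifferentiated RNA. In PRO-seq it gave 0 to 3 levels, 12 to 19 genes off 50% (12 without the 0 h library B) and 0 to 0 share changes. The unknown depth of the RNA shares limits those of genes with low levels.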
